A study of Mus musculus with 9 samples.

Results

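The 207 loci described here are Gm and Rik genes whose RNA was lower after 30 min of lipopolysaccharide (LPS) than before it in immortalized mouse macrophages. Gm symbols with a number are gene models named by the mouse genome database, and symbols ending in Rik go back to RIKEN cDNA clones. Members were chosen from the measured values: a mean of at least 0.7 CPM (counts relative to the library total) at 0 min, a 0 min mean at least 1.5 times the 30 min mean, and all 3 libraries at 30 min below all 3 at 0 min. They are 207 of 2076 Gm and Rik loci with that 0 min level, called the expressed Gm and Rik loci here, of 29745 such loci in the table and of 55450 genes in all. The study followed IMM cells, a WT line of immortalized mouse macrophages, after 5 passages from thaw, with 3 libraries described as biological replicates at each of 0, 30 and 60 min of 100 ng/mL LPS. The 0 min group had no LPS and is the control. All groups are 1 cell line, and no library without LPS was made at 30 or 60 min, so LPS, handling and time cannot be told apart. These are bulk libraries, in which fewer cells holding an RNA and less of it per cell cannot be told apart either.

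Loci of this kind are mostly long non-coding RNAs, pseudogene copies, antisense transcripts and models placed in intron sequence. Many such RNAs are unspliced, stay in the nucleus and are degraded soon after they are made, so total RNA libraries, which also hold RNA without a poly(A) tail, record them better than poly(A)-selected ones. A frequent arrangement is divergent transcription, in which a non-coding RNA starts next to a protein-coding promoter and runs the other way, often from a stretch rich in CpG. Another is a locus placed on the sense strand inside an intron, where reads of the locus and of the unspliced pre-mRNA of the host gene have the same sequence and strand.

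Of the 207 loci, 26 (12.6%) lay upstream of a named protein-coding gene, within 5 kb and on the opposite strand. The share was 7.37% among all expressed Gm and Rik loci. The median distance between the annotated starts was 234 bases, against 163 for the 127 other loci placed in this way. At most 500 bases lay between the starts in 18 of the 26 and in 92 of the 127. The stretches between the starts of 6 such pairs are shown because they are the sequence from which both RNAs lead away. They read 5′ to 3′ on the strand of the non-coding locus, with CpG dinucleotides in capitals. The letters come from the RefSeq promoter table of GRCm38.p6 and the starts from GENCODE M21 on GRCm38. The intervals are chr8:120101483-120101581 (plus strand) for A130014A01Rik, chr16:20548457-20548576 (minus) for Gm15760, chr19:37434657-37434809 (minus) for Gm38345, chr8:60983301-60983436 (plus) for B230317F23Rik, chr16:23127738-23127792 (plus) for 6330408M09Rik and chr7:79920650-79920722 (plus) for 5430400D12Rik.
A130014A01Rik with Zdhhc7: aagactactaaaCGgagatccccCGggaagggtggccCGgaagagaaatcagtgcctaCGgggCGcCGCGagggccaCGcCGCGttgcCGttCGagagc
Gm15760 with Abcf3: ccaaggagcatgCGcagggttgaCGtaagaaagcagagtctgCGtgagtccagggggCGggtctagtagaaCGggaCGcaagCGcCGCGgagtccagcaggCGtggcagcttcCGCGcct
Gm38345 with Hhex: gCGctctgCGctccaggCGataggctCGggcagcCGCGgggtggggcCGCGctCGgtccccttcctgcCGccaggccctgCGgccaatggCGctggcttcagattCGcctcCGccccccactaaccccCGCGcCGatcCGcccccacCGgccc
B230317F23Rik with Clcn3: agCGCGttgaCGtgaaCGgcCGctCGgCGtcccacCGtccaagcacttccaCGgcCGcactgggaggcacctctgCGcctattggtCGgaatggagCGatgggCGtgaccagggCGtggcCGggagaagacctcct
6330408M09Rik with Rfc4: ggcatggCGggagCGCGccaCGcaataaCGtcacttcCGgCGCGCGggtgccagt
5430400D12Rik with Ap3s2: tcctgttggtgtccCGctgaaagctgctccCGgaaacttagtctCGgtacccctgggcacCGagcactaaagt
These intervals run from 55 to 153 bases and hold between 4 CpG dinucleotides, at Ap3s2, and 19, at Hhex. The pairs with a sequence that are not shown, with Wapl, Herc2, Meaf6, Zcchc2 and Rps3a1, held 27, 25, 23, 14 and 9. Only a stretch lying wholly in 1 promoter window of 300 bases has a sequence, so all longer stretches and some shorter ones are left out. Over the 11 falling loci with a sequence between the starts, the median GC content was 69.1%, with a median of 12.1 CpG per 100 bases. The 69 other divergent loci with such a sequence, some as short as 1 base, had medians of 68.0% and 10.2.

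The divergent falling loci were chosen to be lower at 30 min, and the genes beside them were not. A difference between them at that time is thus built in, and the levels are given as a description. A130014A01Rik had 2.83, 3.18 and 3.52 CPM at 0 min, 1.29, 1.09 and 1.38 CPM at 30 min and 2.31, 3.16 and 2.5 CPM at 60 min. Its 30 min libraries were all under its other 6, while Zdhhc7, a palmitoyltransferase gene that starts 100 bases away, had means of 25.4 CPM at 0 min and 25.5 CPM at 30 min. Gm15760, annotated as a transcribed pseudogene, had 2.2, 2.29 and 2.01 CPM, then 1.39, 0.875 and 0.905 CPM, then 2.00, 1.68 and 1.71 CPM, beside means of 39.9 and 38.0 CPM at 0 and 30 min for Abcf3, an ABC-family ATPase without a membrane domain. The locus of this arrangement with the most reads was 4632404H12Rik, 376 bases from the ubiquitin-conjugating enzyme gene Ube2q1. It had 33.3, 32 and 31 CPM at 0 min, 20.5, 21 and 19.9 CPM at 30 min and 22.9, 22.0 and 24.4 CPM at 60 min, with no overlap between the groups of 0 min and either later time. Ube2q1 had means of 139 and 127 CPM at 0 and 30 min and was not called at 30 min; at 60 min its mean was 124 CPM (log2 change from 0 min -0.10, edgeR adjusted p = 0.0411). B230317F23Rik was lower in its 30 min libraries (0.941, 0.665 and 0.652 CPM) than at 0 min (1.3, 1.32 and 1.38 CPM), and its 60 min libraries spread from 0.757 to 1.28 CPM. Clcn3, an endosomal chloride/proton exchanger gene, went the other way at 30 min, with a mean of 124 CPM against 112 CPM at 0 min (log2 change 0.17, edgeR adjusted p = 0.00921). Gm38345 had 2.16, 1.86 and 1.81 CPM at 0 min and 1.12, 1.09 and 1.19 CPM at 30 min, and stayed at 0.965 to 1.19 CPM at 60 min. Its neighbour Hhex, a homeobox transcription factor gene of the blood and endothelial lineages, was lower as well, at 43.0 ± 2.66, 32.7 ± 2.05 and 21.1 ± 0.679 CPM (SD, n = 3) over the 3 times. There were 34 tested genes with a falling locus beside them within 5 kb, on either side and strand. At 30 min Hhex was the only one of these called lower, and 1 was called higher (2.94% each). Among all named protein-coding genes 2.17% were lower and 4.88% higher.

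Across the 207 falling loci the median level was 2.26 CPM at 0 min (range 0.707 to 119), 1.176 CPM at 30 min and 1.5 CPM at 60 min. The summed level was 952, 979 and 922 CPM in the 0 min libraries, 536, 546 and 510 CPM at 30 min and 742, 600 and 643 CPM at 60 min. All 60 min sums lie between those of the other times. The high 60 min sum, in replicate 1, includes 107 CPM from the single locus Gm26244, which had 6.38 and 8.86 CPM in replicates 2 and 3. The 0 min mean was a median of 1.78 times the 30 min mean, from 1.5 at the threshold to 14.3. At the threshold, Gm12403, Gm12715 and Gm48231 had ratios of 1.503, 1.503 and 1.509, and the loci just outside it, 3000002C10Rik, Gm13830 and Gm12183, had 1.497, 1.498 and 1.498. A further 42 expressed Gm and Rik loci had a ratio of at least 1.5 but libraries that overlapped between the times, and 79 loci were higher at 30 min by the mirrored rule. All 207 passed edgeR's filter on low counts. In edgeR's quasi-likelihood test 138 were called lower at 30 min (Benjamini-Hochberg adjusted p under 0.05), where 3.35% of all 14246 tested genes and 10.2% of the expressed Gm and Rik loci (3.91% without the members) were. The members were chosen on this contrast, so the count describes the choice.

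**Figure D1:**
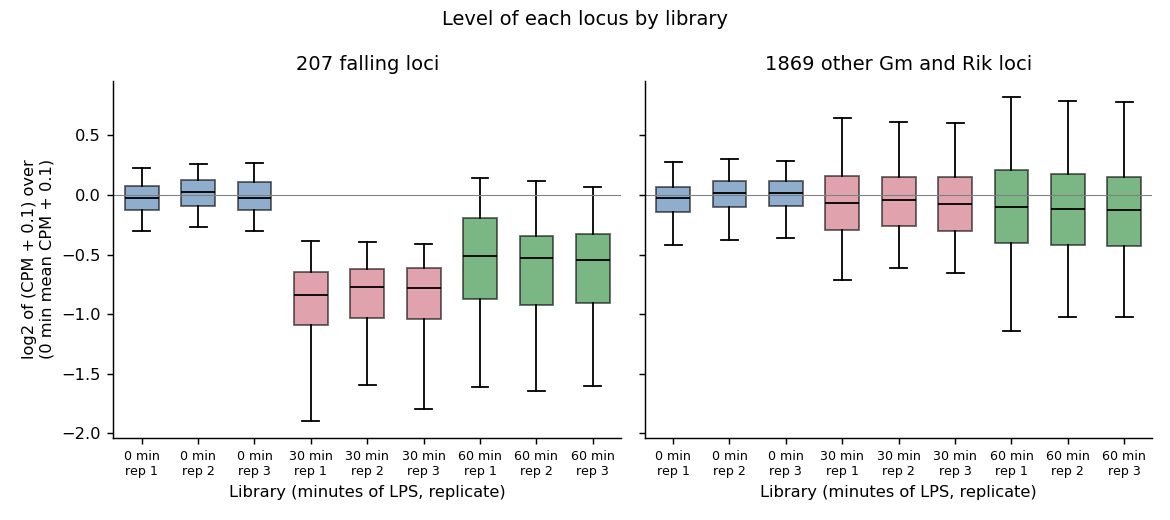
Each box gives, for 1 library, the 5th, 25th, 50th, 75th and 95th percentile over loci of the log2 ratio of the CPM plus 0.1 to the 0 min mean plus 0.1, for the 207 falling loci (left) and the 1869 other expressed Gm and Rik loci (right). Medians of the falling loci lie between -0.84 and -0.77 in the 30 min libraries, as the choice of loci fixes, and between -0.55 and -0.51 at 60 min; those of the other loci lie between -0.13 and -0.04 at both times.

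By GENCODE class the set is mixed. TEC loci, a class of models that await an experimental check, make up 79 of the 207 (38.2%). Their share among the expressed Gm and Rik loci is alike (38.4%). Antisense RNAs make up 28 (13.5% against 7.51%), processed transcripts 21 (10.1% against 5.83%), long intergenic RNAs 23 and sense-intronic RNAs 14. Protein-coding models make up 11 (5.31% against 14.3%), and 23 loci are pseudogenes of one kind or another. Single-exon models make up 62.8% of the set and 62% of the expressed Gm and Rik loci, and the median GC content of the exons was 45.9% against 45.0% for the other loci. In structure the falling loci therefore resemble the loci they were drawn from, apart from more antisense and processed transcripts and fewer protein-coding models. These shares are a description with no test.

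CPM values are not scaled by length, so they order the loci by their reads and not by molecules. Gm42463, a sense-intronic RNA whose model begins 128 bases into Tdrkh, a Tudor-domain gene of the piRNA pathway, had 41.8, 44.8 and 41.8 CPM at 0 min. It had 26.5, 27.2 and 26.6 CPM at 30 min and 30.4, 28.5 and 27.4 CPM at 60 min, so all 6 later libraries lie below the 0 min ones. Tdrkh itself had means of 228, 221 and 208 CPM and was not called in any of the 3 comparisons. Gm43581, in Slc16a1, the gene of the lactate transporter MCT1, had 19.7, 20.9 and 19.1 CPM, then 11.6, 10.8 and 12.4 CPM, then 14.2, 14.4 and 15.2 CPM. Its 60 min libraries form a level of their own between the other times, while Slc16a1 had means of 423, 416 and 407 CPM. Gm43813, in the glucose-sensing transcription factor gene Mlxip, had the same order, with 18.6, 19.8 and 18.4 CPM, then 10.8, 10.1 and 10.5 CPM, then 12.6, 13.5 and 12.8 CPM. Gm20634 (36.3, 30.1 and 34.7 CPM at 0 min and 16.8, 13.9 and 15.2 CPM at 30 min) is different, because 61.7% of its exon bases lie in exons of the histone H3 gene Hist2h3c1, so their reads cannot be told apart; Hist2h3c1 fell from 24.2 ± 1.33 to 3.26 ± 0.802 CPM (SD, n = 3).

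The 10 largest ratios of the 0 to the 30 min mean include 5 intronic loci, 1 of which is the small nuclear RNA locus Gm26244. Gm45203, in the mitochondrial isocitrate dehydrogenase gene Idh2, had 4.24, 4.54 and 4.53 CPM at 0 min, 0.662, 1.3 and 0.977 CPM at 30 min and 1.55, 1.32 and 1.68 CPM at 60 min. Gm19721, in the inhibitory G-protein subunit gene Gnai2, had 5.21, 4.54 and 5.30 CPM, then 1.05, 1.51 and 1.45 CPM, then 1.41, 1.32 and 1.61 CPM. Both stayed far under their 0 min level at 60 min. Gm44639, in the lipid hydrolase gene Abhd2, had 1.49, 1.86 and 1.71 CPM, then 0.314, 0.490 and 0.326 CPM, then 1.41, 1.22 and 1.15 CPM. Gm48646, in the cytokinesis scaffold gene Anln, had 3.20, 3.71 and 3.02 CPM, then 1.05, 0.840 and 0.760 CPM, then 3.21, 2.50 and 2.01 CPM. These 2 loci were back near the 0 min level at 60 min, Gm48646 with overlapping libraries. The host mRNAs at 0 and 30 min had means of 181 and 178 CPM for Idh2, 248 and 251 CPM for Gnai2, 59.1 and 58.8 CPM for Abhd2 and 167 and 168 CPM for Anln, none of them called at 30 min.

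**Figure D2:**
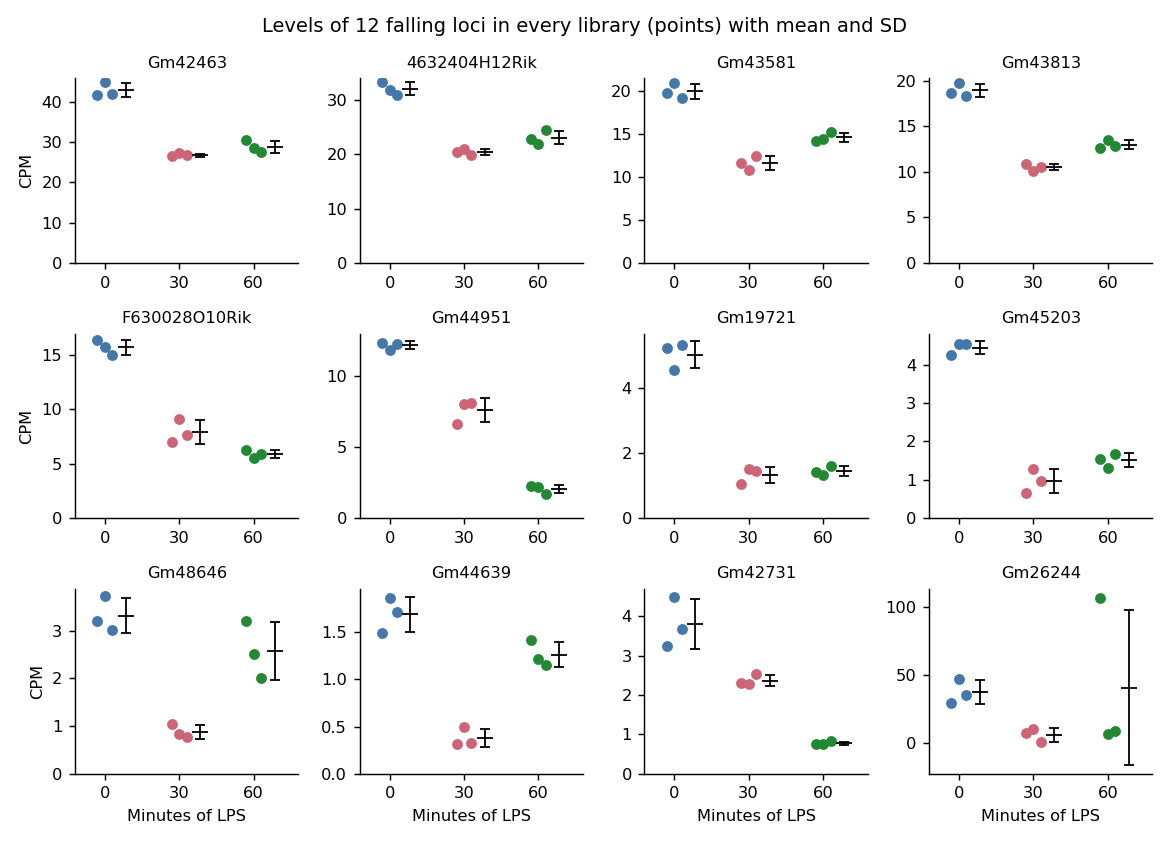
CPM (linear axis, 1 scale per panel) of 12 falling loci against minutes of LPS, with a point for each of 9 libraries and the mean with SD (n = 3) beside them. Gm44951, Gm42731 and F630028O10Rik are lower again at 60 min, Gm48646 and Gm44639 are back near the 0 min level, and Gm26244 has 1 library at 107 CPM.

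The 60 min libraries were not used in the choice, but both sides they are compared with were, so part of a return from the 30 min level is built into the choice of loci with high 0 min and low 30 min values. The mean at 60 min lay between those at 0 and 30 min for 141 loci, at or above the 0 min mean for 12 and below the 30 min mean for 54. Against 30 min, 58 loci were called higher and 4 lower, where 8.87% and 7.65% of all tested genes, and 10.4% and 12.1% of the other 1869 expressed Gm and Rik loci, were. Against 0 min, 84 were called lower and 1 higher, where 11.7% and 13.3% of all genes and 15.6% and 13.4% of the other loci were; with DESeq2 the lower count was 52. All 60 min libraries were below all 0 min libraries for 135 loci (31.6% of the expressed Gm and Rik loci), and above all 30 min libraries for 85 (17.1%). The median log2 change was 0.34 from 30 to 60 min and -0.48 from 0 to 60 min, beside 0.00 for all tested genes in both comparisons.

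By class, the 60 min levels stood at different distances from those at 30 min. The median ratio of the 60 min to the 30 min mean was 1.34 for the 79 TEC loci, 1.44 for the 7 bidirectional-promoter RNAs and 1.04 for the 28 antisense RNAs. Of the 28 antisense RNAs, 23 had all 60 min libraries below all 0 min libraries, against 43 of the 79 TEC loci. So did 18 of 21 processed transcripts, 12 of 14 sense-intronic RNAs and 18 of 23 long intergenic RNAs. This order is thus not particular to antisense RNAs. It was found in 31.6% of the expressed Gm and Rik loci, and the choice of high 0 min values favours it. An antisense example is Gm4673, opposite the lipoprotein receptor gene Lsr. It had 8.34, 8.47 and 7.85 CPM at 0 min, 4.11, 3.82 and 4.74 CPM at 30 min and 4.31, 4.01 and 4.74 CPM at 60 min. Its later groups overlap each other and neither reaches the 0 min level. By contrast Gm17690, antisense to the myotubularin-related gene Mtmr11, had 8.60, 8.79 and 8.69 CPM, then 4.6, 5.5 and 4.09 CPM, then 8.58, 6.22 and 7.11 CPM, a range that nearly reaches 0 min. The difference between classes was not tested.

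Of the 58 loci called higher from 30 to 60 min, 34 lay in introns on the strand of the host. A further 9 overlapped a gene on the opposite strand and 5 were divergent within 5 kb. Of all 207 loci, 94, 40 and 26 were placed in these ways. TEC models were 31 of the 58 and 79 of the 207. In all 58 the 60 min libraries lay above every 30 min library, as in 17.1% of the expressed Gm and Rik loci. In 26 they also lay below every 0 min library, where 2.36% of the expressed loci had both orders. The choice of loci and the call build in much of both counts. The intronic loci among the 58 include some that had returned to their 0 min level. Gm42856, in the actin nucleation gene Wasl, had 4.76, 5.71 and 5.13 CPM at 0 min, 2.89, 2.77 and 2.75 CPM at 30 min and 5.86, 4.7 and 5.01 CPM at 60 min. Gm37186, in the acetyltransferase gene Crebbp, had 7.44, 7.57 and 8.05 CPM, then 6.1, 4.66 and 4.49 CPM, then 8.2, 7.33 and 7.64 CPM. Gm45555, in the acetyltransferase gene Kat6a, had 4.91, 6.71 and 5.43 CPM, then 3.17, 3.5 and 3.55 CPM, then 5.34, 5.76 and 4.84 CPM. In these 3 loci the 60 min values overlap those at 0 min and only the 30 min group stands apart. Host means at 0, 30 and 60 min were 43.8, 42.9 and 35.8 CPM for Wasl and 253, 244 and 233 CPM for Crebbp. Those for Kat6a were 181, 175 and 159 CPM. By plain totals each host mean was thus lowest at 60 min. The edgeR log2 change from 0 to 60 min was -0.05 in Crebbp (no call) and -0.13 in Kat6a (called lower). Gm48138, in the ceramide transfer gene Col4a3bp, came back in part, with 2.87, 3 and 2.25 CPM, then 0.732, 0.945 and 0.579 CPM, then 1.65, 1.87 and 1.42 CPM.

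The single locus called higher at 60 min than at 0 min was Gm10388, a TEC model 22641 bases from Resf1, a silencing factor gene of endogenous retroviruses. It had 1.49, 1.43 and 1.14 CPM at 0 min, 1.08, 0.630 and 0.688 CPM at 30 min and 2.45, 2.14 and 2.34 CPM at 60 min, so the 3 groups do not overlap and the latest is the highest. Gm37067, in the BEN-domain gene Bend6, had the same order (0.782, 0.857 and 0.671 CPM, then 0.558, 0.245 and 0.290 CPM, then 1.10, 1.32 and 1.22 CPM) without a call at 60 against 0 min.

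Of the 4 loci called lower at 60 than at 30 min, 3 are intronic. Gm44951, in the zinc finger gene Zfp710, had 12.4, 11.9 and 12.3 CPM at 0 min, 6.66, 8.09 and 8.11 CPM at 30 min and 2.27, 2.2 and 1.75 CPM at 60 min, a stepwise decline with no overlap between any of the times. Zfp710 had means of 135 ± 3.66 and 136 ± 0.493 CPM at 0 and 30 min and 105 ± 4.68 CPM at 60 min (SD, n = 3), a fall by 0.29 on the log2 scale from 0 to 60 min (edgeR adjusted p = 0.000121). Gm43072, in the fatty acid elongase gene Elovl6, had 9.57, 11.8 and 10.1 CPM, then 5.26, 7.28 and 6.84 CPM, then 4.14, 3.16 and 3.16 CPM. Gm42731, in the clathrin adaptor gene Hip1, had 3.24, 4.50 and 3.69 CPM, then 2.30, 2.28 and 2.53 CPM, then 0.758, 0.757 and 0.823 CPM. Elovl6 and Hip1 were not called at either time, at 255, 246 and 232 CPM and at 171, 171 and 160 CPM. The other locus, the antisense RNA F630028O10Rik near the complement receptor gene Vsig4, had 16.4, 15.7 and 15 CPM, then 7.01, 9.14 and 7.60 CPM, then 6.27, 5.53 and 5.89 CPM, and its call from 30 to 60 min was lost without 30 min replicate 2 (log2 change -0.27 in place of -0.38) or 60 min replicate 2 (-0.34). Without 30 min replicate 1, 8 loci were called lower from 30 to 60 min.

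The protein-coding genes that overlap a falling locus, or else lie nearest to it, were seldom called at 30 min. Of the 207 loci, 102 (49.3%) overlapped a named protein-coding gene on the same strand, 40 overlapped one on the opposite strand only, 39 lay within 5 kb of one and 26 (12.6%, against 22.3% of the expressed Gm and Rik loci) lay farther away. In 94 of the 102 the locus shared no exon base with that gene and lay in its introns. These partner genes, which include the nearest genes of the 26 farther loci, number 196, of which 173 were tested. At 30 min 7 of the 173 were called higher and 3 lower (4.05% and 1.73%). Among all named protein-coding genes 4.88% and 2.17% were. The 7 higher genes were Aak1, Btbd7, Clcn3, Dnaaf2, Mef2d, Rc3h1 and Tagln2. The 3 lower ones were Hist2h3c1, Hhex and 2610044O15Rik8, which counts as named because its symbol does not end in Rik. Of the 122 tested partners that overlap a falling locus, 5 were higher and 1 lower at 30 min. The number of higher genes was 1 to 4 without any one of the 0 and 30 min libraries (1 without 0 min replicate 1). At 60 min against 0 min 30 partner genes (17.3%) were lower and 9 (5.20%) higher, where 11.2% and 13.8% of named protein-coding genes were. From 30 to 60 min 28 (16.2%) were lower and 5 (2.89%) higher, where 7.36% and 8.51% were. Over the 93 tested genes that hold a falling locus on their own strand, the median log2 change was 0.01 at 30 min and -0.05 at 60 min.

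**Figure D3:**
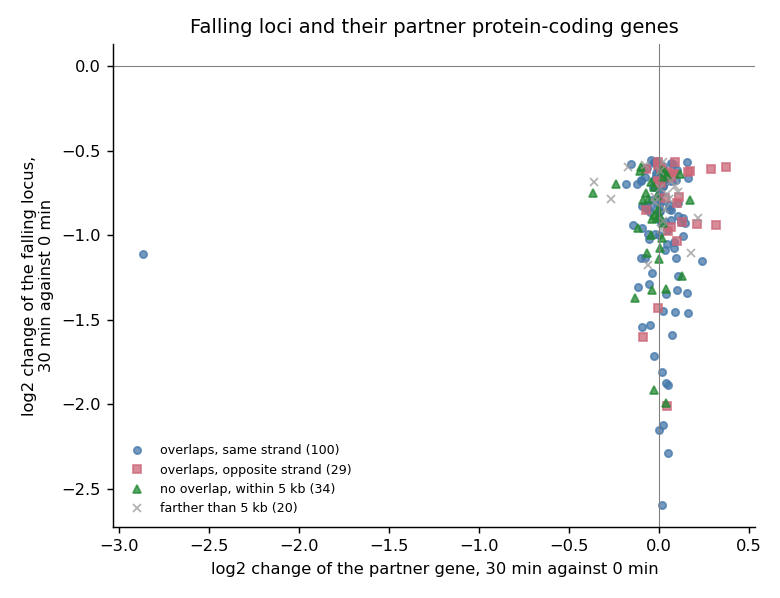
Log2 change from 0 to 30 min (edgeR) of each falling locus against that of its partner gene, 1 point per locus with a tested partner, by relation; counts are in the legend. The loci run from -0.56 downward because of the choice, while nearly all partner genes lie near 0; the point at the far left is Gm20634 with Hist2h3c1, which share exon bases.

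Within host genes the falling loci lay near the start. For the 94 intronic loci on the strand of their host the median distance from the annotated start of the host was 8.77 kb, or 20% of its length, against 41.1 kb and 41.8% for the 713 other expressed Gm and Rik loci placed in this way. Hosts of the falling loci were shorter, with a median of 56.5 kb against 115 kb. Host levels were alike, with median 0 min values of 63.3 and 65.7 CPM. Of all intronic loci within 5 kb of the host start, 30 of 90 (33.3%) belonged to the falling set. The share was 27.3% (21 of 77) at 5 to 10 kb, 19.8% (25 of 126) at 10 to 20 kb, 6.90% (14 of 203) at 20 to 50 kb, 0.704% (1 of 142) at 50 to 100 kb and 1.78% (3 of 169) farther in. The single falling locus at 50 to 100 kb is Gm42731 in Hip1, which was lower again at 60 min.

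Over all these intronic loci, those within 20 kb of the host start had lower medians at 30 min than those farther in, with no steady order inside that distance. The median log2 change from 0 to 30 min was -0.35 within 5 kb, -0.26 at 5 to 10 kb, -0.29 at 10 to 20 kb, -0.04 at 20 to 50 kb, 0.09 at 50 to 100 kb and 0.08 farther in. The medians of their host genes lay between 0.00 and 0.03 in every class of distance. The falling loci contribute to these medians by their choice; without them the values were -0.08, -0.04, -0.17, -0.01, 0.09 and 0.09, smaller within 20 kb and of the same sign. From 30 to 60 min the medians were 0.31, 0.29, 0.21, 0.10, -0.41 and -0.13, and 0.22, 0.19, 0.13, 0.09, -0.41 and -0.13 without the falling loci. At 50 to 100 kb 54 of 142 loci were called lower from 30 to 60 min and 13 higher. Within 5 kb 3 of 90 were called lower and 28 higher. Of all tested genes 7.65% were lower and 8.87% higher. The falling loci were chosen for low 30 min values, which builds in part of the rise within 5 kb. Without them 53 of 141 loci at 50 to 100 kb were called lower and 13 higher, and within 5 kb 3 of 60 lower and 17 higher. Calls from 30 to 60 min were thus more often lower at 50 to 100 kb and more often higher within 5 kb.

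By library, the median log2 ratio to the 0 min mean within 20 kb of the host start lay between -0.35 and -0.28 at 30 min and between -0.10 and -0.05 at 60 min. The choice of the falling loci, which are low in every 30 min library, fixes this in part. Without them it lay between -0.17 and -0.12 at 30 min and between 0.03 and 0.08 at 60 min, and leaving them out takes away loci with low 30 min values. At 50 to 100 kb, where 1 falling locus lies, it was between 0.05 and 0.08 at 30 min and between -0.34 and -0.24 at 60 min. The division by distance was made after the values were seen, loci of 1 host share their pre-mRNA, and host starts are those of the longest annotated extent, which need not be the start in use. Whether reads of unspliced host RNA make up the values of these loci was not tested.

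**Figure D4:**
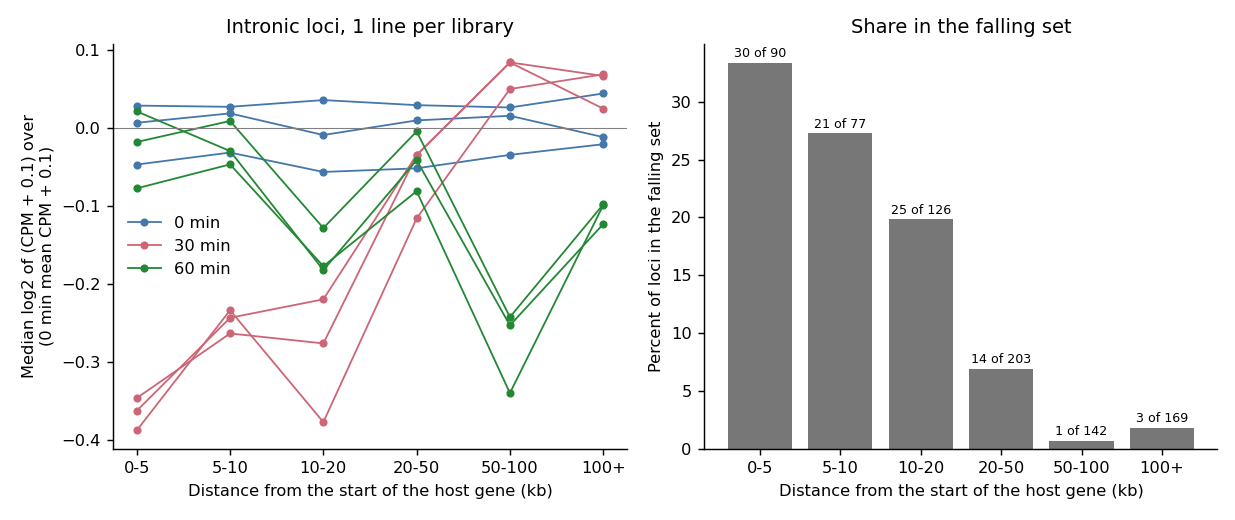
Left, the median over intronic Gm and Rik loci (same strand as the host, 807 loci) of the log2 ratio of the CPM plus 0.1 to the 0 min mean plus 0.1, by distance from the host start in kb, 1 line per library; right, the percent of these loci that belong to the falling set (bars from 0, counts above them). The 30 min lines are lowest within 20 kb, which the choice of the falling loci fixes in part, and above 0 from 50 kb on, where the 60 min lines lie between -0.34 and -0.10.

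Loci of 1 host can be compared directly. Mlxip holds 3 falling loci on its own strand, Gm42907 at 2.44 kb, Gm42908 at 6.27 kb and Gm43813 at 11.7 kb from its start, with ratios of the 0 to the 30 min mean of 1.83, 1.83 and 1.80. Slc16a1 holds Gm43581 at 4.33 kb and Gm43585 at 7.57 kb (1.72 and 1.67), and the pseudogene Gm43582 lies upstream on the other strand (2.16). In other hosts the ratios of the intronic falling loci were less alike. They were 1.66 and 4.48 in Abhd2, 1.81 and 2.98 in Ptpn22, 1.89 and 2.41 in Lrig2 and 2.07 and 2.50 in Zc3h14. In all, 9 partner genes, some of them neighbours and not hosts, account for 20 of the falling loci. Loci with the same partner may thus not be independent of each other, which was not tested. The 87 hosts of intronic falling loci also held 25 other expressed Gm and Rik loci in their introns, at 18 hosts. Their median ratio of the 0 to the 30 min mean was 1.09, against 1.05 for all 1869 expressed Gm and Rik loci outside the set. At 30 min 2 of the 25 were called lower and 1 higher, where 3.91% and 5.3% of the 1869 were. These 25 loci are by definition ones that did not meet the rule. All 30 min libraries lay below all 0 min libraries in 5 of the 25, as in 16.7% of the 1869. With 25 loci these counts are too small to tell the hosts of falling loci from others.

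Of the loci that overlap a gene on the opposite strand, the one with the most reads was Gm44777, antisense to the phosphoinositide kinase gene Pik3c2a. It had 9.68, 10.3 and 10.5 CPM at 0 min, 5.54, 5.22 and 5.03 CPM at 30 min and 7.00, 6.35 and 6.29 CPM at 60 min, with no overlap between times, beside means of 107 and 115 CPM at 0 and 30 min for Pik3c2a. The bidirectional-promoter RNA 9330151L19Rik had 8.56, 8.14 and 9.63 CPM, then 3.77, 5.04 and 4.67 CPM, then 6.13, 6.78 and 7.18 CPM. Its partner Dnaaf2, a dynein assembly factor gene, had 7.37 and 9.01 CPM at 0 and 30 min, a rise by 0.32 on the log2 scale (edgeR adjusted p = 0.0486). The strongest fall among antisense RNAs, in 0610039K10Rik opposite the serine incorporator gene Serinc3, had 0.93, 1.179 and 0.839 CPM at 0 min, 0.244, 0.210 and 0.253 CPM at 30 min and 0.310, 0.164 and 0.198 CPM at 60 min, and so stayed down. Over the 29 tested genes opposite a falling locus, 2 were higher and 0 lower at 30 min by edgeR (1 lower at an unadjusted p under 0.05, 0 by DESeq2 or limma-voom). The kit marks the strand, but the strand setting of the counting is not given in the sources used here, so reads of a locus and its antisense partner may not be fully separated.

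Values of loci with near-identical copies are uncertain, because RSEM divides shared reads between them. Of the 23 pseudogene loci 15 matched the transcript of another, protein-coding gene, 7 of them at 95% identity or more over at least 90% of their length. Gm12715 is 99.6% identical to the gamma-actin gene Actg1 over its whole length; it had 132, 123 and 100 CPM at 0 min, 92.0, 83.4 and 61.3 CPM at 30 min and 82.8, 71.9 and 109 CPM at 60 min, beside means of 884 and 938 CPM at 0 and 30 min for Actg1. Gm10108, with the largest ratio (14.3), had 3.17, 4.38 and 2.22 CPM at 0 min and 0.682, 0 and 0 CPM at 30 min, and 1.91, 0 and 3.57 CPM at 60 min. It is 99.4% identical to Gm10053, whose mean was 23.9 CPM at 0 min and 33 CPM at 30 min. Of the 15 matched genes 0 were called at 30 min by edgeR (2 higher and 3 lower at an unadjusted p under 0.05), 0 by limma-voom and 1, Actg1, by DESeq2. The small nuclear RNA locus Gm26244 had 29.6, 47.0 and 35.2 CPM at 0 min, 7.41, 10.3 and 0.320 CPM at 30 min and 107, 6.38 and 8.86 CPM at 60 min. Its 60 min level rests on replicate 1: the log2 change from 0 to 60 min was 0.18 with it and -2.22 without it.

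The 11 protein-coding models are a mixed group, and several share sequence with a named gene. B130006D01Rik, which lies in an intron of the zinc finger gene Zfp652, had 7.78, 8 and 8.15 CPM at 0 min, 3.9, 5.15 and 5.83 CPM at 30 min and 3.83, 3.78 and 3.98 CPM at 60 min. Its 60 min libraries are the most alike and none of the later ones reaches 0 min, while Zfp652 had means of 156, 151 and 131 CPM. Gm28038 has 75.1% of its exon bases in exons of the nucleoporin gene Nup188 and Gm49368 has 71.8% in those of the integrin gene Itgam, so the division of reads between each pair is uncertain. Gm28038 had 1.93, 0.763 and 0.731 CPM at 0 min and 0, 0.311 and 0.373 CPM at 30 min, and Nup188 had means of 167 and 170 CPM. Gm49368 had 1.38, 1.4 and 1.44 CPM and then 0.793, 0.35 and 1.06 CPM, beside 165 and 169 CPM for Itgam. Gm6710 had 13.3, 12.3 and 11.7 CPM at 0 min, 10.4, 2.85 and 2.91 CPM at 30 min and 3.09, 9.92 and 6.65 CPM at 60 min, with 1 library of each later time close to the 0 min level.

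Promoter sequence was matched for 53 of the 207 loci, by symbol, in the RefSeq table of windows from 250 bases before to 50 after the start. These windows had a median GC content of 56.3% and 14 CpG, against 56.9% and 16 for 406 other expressed Gm and Rik loci and 52.8% and 7 for all 27025 genes of the table. Searched on both strands, the AP-1 site TGANTCA was in 4 of the 53 (7.55%, against 6.40% of the 406 other loci and 8.97% of all genes), the CRE TGACGTCA in 0 (3.45% and 2.03%), the ETS site CCGGAAGT in 3 (5.66%, against 9.36% and 4.31%), the PU.1 site GAGGAAGT in 3 (5.66%, against 5.17% and 3.69%) and the TATA box TATAAA in 3 (5.66%, against 10.6% and 15.7%). The falling loci are thus close to other Gm and Rik loci in GC and CpG content, and their counts of each motif are small.

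Named long non-coding RNA genes offer a comparison outside the Gm and Rik names. Of 34 tested, 7 fell and 6 rose at 30 min, with a median log2 change of 0.01, and 15 rose and 4 fell from 30 to 60 min. Of all tested genes 3.35% were lower and 4.84% higher at 30 min, and 8.87% were higher and 7.65% lower from 30 to 60 min. The 6 that rose at 30 min were Neat1, Mir155hg, Lncpint, Rmrp, Ptgs2os and Ptgs2os2. Ttc39aos1 had the largest fall on the log2 scale (7.94 to 4.07 CPM, and 3.41 CPM at 60 min). Those that fell included the snoRNA host genes Zfas1 (86.9 to 49.3 CPM, and 67.4 CPM at 60 min), Gas5 (186 to 128 and 140 CPM), Snhg5 (35.7 to 21.9 and 25.3 CPM) and Snhg12 (21.5 to 14.6 and 21.6 CPM), named after their values were seen, as well as Snhg3 and Snhg20. Snhg1, Snhg6, Snhg8, Snhg9, Snhg15 and Snhg17 were not called at 30 min, and of these Snhg1, Snhg15 and Snhg17 were called higher at 60 than at 0 min. Of 31 tested genes of the nuclear exosome, its adaptors and 3′ end processing, 0 rose and 1 fell at 30 min by edgeR (2 higher at an unadjusted p under 0.05, 0 by DESeq2 or limma-voom). It was Zfc3h1 (122 to 102 CPM, edgeR log2 change -0.24), a subunit of the complex that carries polyadenylated nuclear RNA to the exosome. Library totals ran from 26867428 to 30402308 counts, so 10 counts were worth 0.329 to 0.372 CPM and a locus at 0.7 CPM rests on few reads. The 8 macrophage markers were all present (summed 1809 to 2036 CPM), and the 3 mast cell markers were at 0 in every library. The 3 endothelial markers summed to 1.23 to 2.196 CPM, and those of neutrophils, B cells, fibroblasts, T cells and epithelium to at most 0.385, 0.384, 0.21, 0.101 and 0.07 CPM in any library. In these libraries 19 of 20 early LPS genes rose at 30 min.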

How the data were processed

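Gene counts were read from the authors' deposited table, which holds expected counts per gene from RSEM, not normalized. The submitters' processing notes name RSEM 1.3.1, STAR 2.7.0f, cutadapt 1.18, bcl2fastq 2.20, Picard 2.18.26 and DESeq2, and build mm10; settings, annotation and strand setting of the counting: not given in the sources used here. All 55450 identifiers were found in GENCODE M21. Members were chosen on CPM by plain totals, which are the levels printed. The members, gene lists and named genes (highest 0 min mean, largest ratios, calls from 30 to 60 min) were chosen with earlier results of these data known. Counts were rounded and tested over all 14246 genes passing filterByExpr (a minimum count of 10) with edgeR 4.0.16 (R 4.3.3; quasi-likelihood, TMM, time as the only term, 9 libraries, two-sided, Benjamini-Hochberg adjusted p under 0.05). The fit was tested on simulated data. Partner genes are the overlapping named protein-coding gene, same strand first, or else the nearest. Pseudogenes were matched with BLAST 2.17.0. DESeq2 1.42.0 and limma-voom 3.58.1 were alternatives. The authors' own DESeq2 tables were not used.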

Additional observations from a re-analysis of the deposited data

How the results depend on the processing

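The number of loci the rule finds was 365 at a fold of 1.3, 58 at a fold of 2 and 112 at a 0 min mean of at least 2 CPM; leaving out 1 library gave 226 to 260. With DESeq2, 52 members were lower at 60 against 0 min. Partner genes higher at 30 min numbered 4 with DESeq2, plain library totals, only the 2 times compared, or the replicate block; lower ones numbered 5 with plain totals or a minimum count of 50. Leaving out 1 library gave 790 to 1194 called genes at 30 min, 2804 to 3488 at 60 min and 1651 to 2497 between these times. For members it gave 94 to 133 lower at 30 min, 62 to 85 lower at 60 min, and 40 to 56 higher and 3 to 8 lower from 30 to 60 min. For partner genes it gave 1 to 6 higher and 2 to 4 lower.

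For intronic loci within 20 kb of the host start, a division made after seeing the data, the median log2 change at 30 min was -0.23 at a minimum count of 50, and -0.33 to -0.27 with 1 library left out; from 30 to 60 min it was 0.20 with plain totals and 0.24 to 0.27. The choice of members fixes the 30 min sign in part. Without the members the 30 min median was -0.12, -0.092 at a minimum count of 50 and -0.15 to -0.093 with 1 library left out; from 30 to 60 min it was 0.18, 0.14 with plain totals, 0.22 at a minimum count of 50 and 0.17 to 0.22. At 50 to 100 kb it was 0.063 with plain totals and 0.083 to 0.13 at 30 min, and -0.42 to -0.37 from 30 to 60 min. Counted only when wholly inside, 9 members overlap a gene on the opposite strand alone; 22 lie within 1 kb of one. The Gm26244 change from 0 to 60 min turned to -2.22 without 60 min replicate 1 and was 0.69 without 60 min replicate 2. For named members the alternatives left 2173 values on their side of the threshold, 152 lost a call, 36 gained one and 1 reversed. The cause of these shifts was not tested.

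Same-numbered libraries of different times had correlations of -0.064 to 0.006 in their deviations from the group means. Of the 9 libraries 0 correlated best with their own number, so no pairing by number was seen. The labels do not say whether same-numbered libraries were handled together, and these correlations cannot show it. With the replicate block 4 members were lower from 30 to 60 min, as without it.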
